A study of Mus musculus with 4 samples.

Results

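The mitochondrially encoded genes were taken as all rows of the count tables whose symbol begins with mt-. They were 37 of the 53465 genes listed and comprised 13 protein genes, 2 rRNA genes and 22 tRNA genes, which is the full gene content of the mouse mitochondrial genome. They were measured by RNA-Seq in primary oligodendroglial cell (OGC) cultures from the mouse forebrain that had been differentiated for 3 days. The libraries comprised 2 ctrl cultures, whose cells carried Zfp276 flox/flox alleles without Cre, and 2 Zfp276cko cultures, whose cells carried the same floxed alleles (exons 2 to 5 flanked by loxP sites) together with a Sox10::Cre transgene. According to the study, Cre from this transgene is active in OGCs from the precursor stage onwards, and the deletion is incomplete. Each culture was a separate preparation from 3 newborn mice aged 2 to 4 days, on a mixed C3H and C57Bl/6J background and of both sexes. The mice also carried a Rosa26 tdTomato reporter allele by which Zfp276cko newborns were recognized. Normalized counts of Zfp276, the targeted gene, were 1648 and 2230 in the ctrl libraries and 490 and 503 in the Zfp276cko libraries, so that every library matched its label and some Zfp276 RNA remained.

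The mitochondrial genome is a small circular chromosome present in many copies per cell. It is transcribed from both strands into long precursors, from which tRNAs are cut out so that the rRNAs and mRNAs between them are released. The 13 proteins are all subunits of the respiratory chain and the ATP synthase, the complexes of oxidative phosphorylation (OXPHOS). They comprise NADH dehydrogenase subunits (mt-Nd1 to mt-Nd6 and mt-Nd4l) of complex I, cytochrome b (mt-Cytb) of complex III, cytochrome c oxidase subunits (mt-Co1 to mt-Co3) of complex IV and ATP synthase subunits (mt-Atp6 and mt-Atp8) of complex V. mt-Rnr1 and mt-Rnr2 give the 12S and 16S rRNA of the mitochondrial ribosome. All other subunits of these complexes and all proteins that transcribe, process and translate mitochondrial RNA are made from nuclear genes.

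Total counts ranged from 21068322 to 26599809 per library. Before any comparison of genotypes, the libraries were compared by their cell type markers, and ctrl 1 stood apart for several of them. Summed markers of fibroblasts and vessels reached 321 CPM (counts scaled to a common library total) in ctrl 1 and 11.2 CPM in ctrl 2, against 15.3 to 16.8 CPM in the Zfp276cko libraries, and 6 of the 7 markers tested were highest in ctrl 1, while the vessel marker Cldn5 was at 0 in all libraries. For microglia the sums were 1971 and 1050 CPM in the ctrl libraries and 1438 to 1498 CPM in the Zfp276cko libraries, with 9 of 11 markers highest in ctrl 1. Over all genes tested, 30.7% were highest in ctrl 1. Summed neuronal markers were lowest in ctrl 1, at 51.1 CPM against 259 CPM in ctrl 2 and 173 to 175 CPM in the Zfp276cko libraries. Oligodendrocyte markers, which fit the label of the cultures, summed to 11396 to 16612 CPM in the ctrl and 8627 to 8827 CPM in the Zfp276cko libraries, and both Zfp276cko libraries were below both ctrl libraries for 8 of 9 (23.7% of all genes tested had this order). Precursor markers summed to 6908 CPM in ctrl 1, 5413 CPM in ctrl 2 and 4115 to 4198 CPM in Zfp276cko. Of these markers, 3 of 5 were highest in ctrl 1. The sums had the same order of the genotypes as the mitochondrial share given further on, but they largely followed Gpr17. This gene had 113405 (ctrl 1), 69766 (ctrl 2), 43296 (Zfp276cko 1) and 41092 (Zfp276cko 2) normalized counts. Its log2 fold change was -1.12, whereas the median of the 5 precursor markers was -0.25. Astrocyte markers overlapped between genotypes, with 1168 to 1360 CPM in ctrl and 1283 to 1342 CPM in Zfp276cko. The part of these differences in the mitochondrial values was not tested, and in such bulk samples a change in the number of cells of a type cannot be told apart from a change of RNA per cell.

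Some of the mitochondrial protein genes could hardly receive counts because their sequence also occurs in the nuclear genome. Reads were 101 bases long and only reads with a unique mapping were counted. For each gene, all 101-base windows were therefore compared with the annotated nuclear transcripts (GENCODE M21, build mm10). In total 10 annotated nuclear pseudogenes held at least 1 identical window. Of these, 7 formed a single block on chr1:24611535-24616197 (minus strand, 4663 bases) that corresponds to bases 6394 to 11042 of the mitochondrial chromosome, and the remaining 3 lay on chromosome 2. The copied stretch begins inside mt-Co1, runs through mt-Co2, mt-Atp6, mt-Co3, mt-Nd3 and mt-Nd4l and ends inside mt-Nd4.

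The first 120 bases of mt-Co2 (chrM:7013-7132, plus strand) and of the pseudogene Gm28661 (chr1:24615446-24615565, minus strand) are shown because they are the same in every base, as were all 681 aligned bases of this pair.
mt-Co2: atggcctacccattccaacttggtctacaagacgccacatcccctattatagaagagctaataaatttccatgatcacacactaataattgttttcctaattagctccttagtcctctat
Gm28661: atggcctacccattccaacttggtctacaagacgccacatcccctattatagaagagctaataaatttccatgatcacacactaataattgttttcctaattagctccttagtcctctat

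The ends of the copied stretch are shown in mt-Co1 (chrM:6334-6453, plus strand) and mt-Nd4 (chrM:10983-11102, plus strand), with bases inside the stretch in capitals. These are the places where the same gene passes from bases that a read can be assigned to into bases with a copy on chromosome 1.
mt-Co1: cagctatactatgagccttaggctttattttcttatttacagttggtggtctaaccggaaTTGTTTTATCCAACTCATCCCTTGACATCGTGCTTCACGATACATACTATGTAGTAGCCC
mt-Nd4: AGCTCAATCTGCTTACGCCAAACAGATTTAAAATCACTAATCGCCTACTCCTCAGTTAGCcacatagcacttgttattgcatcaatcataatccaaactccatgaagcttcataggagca

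In mt-Co2, 581 of 584 windows (99.5%) had an exact nuclear copy. The values were 578 of 581 for mt-Atp6, 683 of 684 for mt-Co3, 242 of 248 for mt-Nd3 and 194 of 197 for mt-Nd4l. The genes were also aligned with their copies, which covered 99.0% to 99.9% of the bases of the 4 genes that follow. Identity was found in 678 of 678 aligned bases between mt-Atp6 and Gm10925 and in 783 of 783 between mt-Co3 and Gm28437. It was 294 of 294 between mt-Nd4l and Gm10222 and 344 of 345 between mt-Nd3 and Gm28438. The only difference was T3C (the mitochondrial base first, counted from the start of mt-Nd3). All of these genes were listed at 0 in every library except mt-Nd3, which had 1 count in Zfp276cko 1. The counts on the copies themselves did not exceed 2 for any pseudogene of the chromosome 1 block. These zeros thus set no limit on the amount of RNA from mt-Co2, mt-Atp6, mt-Co3, mt-Nd3 or mt-Nd4l.

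mt-Atp8 was also at 0 in all libraries, although none of its 104 windows occurred in an annotated nuclear transcript. It lies between mt-Co2 and mt-Atp6 and shares 43 bases with the latter. The distance between the copies of its neighbors on chromosome 1, Gm28661 and Gm10925, was 233 bases. It was 230 bases between mt-Co2 and mt-Atp6, but the match to Gm28661 ends at base 7693, before the end of mt-Co2 at base 7696. Measured between the matched mitochondrial bases 7693 and 7927, the interval is as long as that on chromosome 1. The sequence of that interval on chromosome 1 was not analysed here.

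Copies covered 776 of 1278 windows (60.7%) in mt-Nd4 and 443 of 1445 windows (30.7%) in mt-Co1, so that only the remainder of these genes was countable. mt-Nd2 shared 3.09% of its windows, and mt-Rnr1, mt-Rnr2, mt-Nd1, mt-Nd5, mt-Nd6 and mt-Cytb shared none. Among the pseudogenes, only the chromosome 2 members Gm13340 (38 and 24 reads in ctrl, 27 and 29 in Zfp276cko) and Gm13341 (8 and 6 in ctrl, 13 and 28 in Zfp276cko) reached 10 counts in a library.

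**Figure D1:**
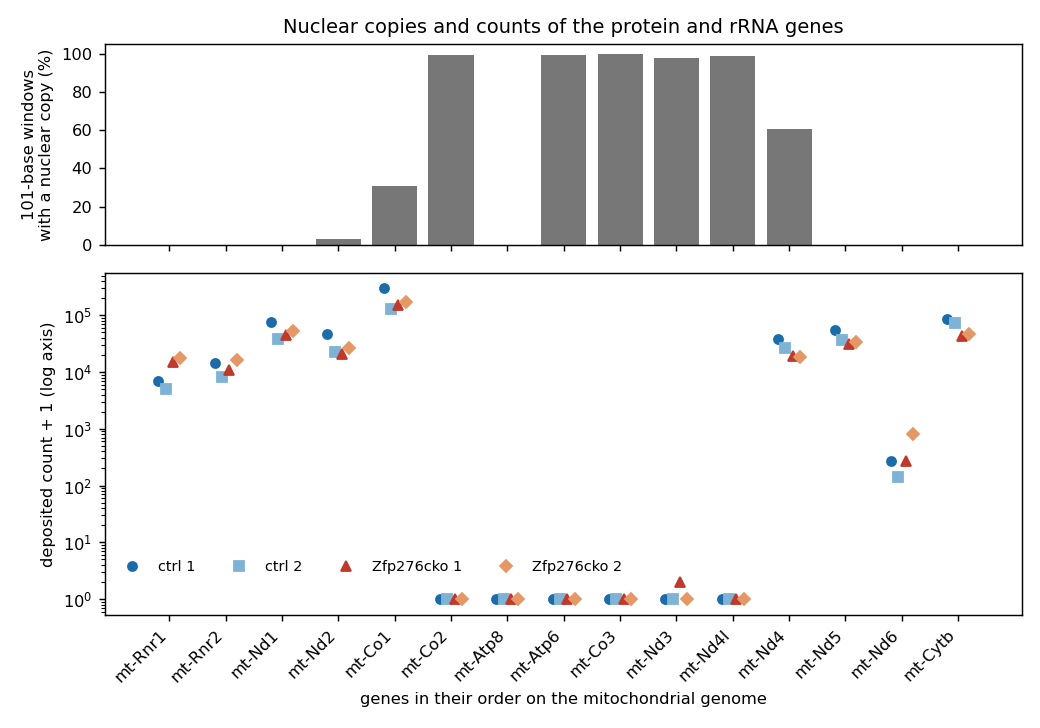
Upper panel, percent of the 101-base windows of each mitochondrial protein or rRNA gene with an exact copy in an annotated nuclear transcript. Lower panel, deposited counts plus 1 on a log axis for the 4 libraries, with genes in chromosomal order; the 5 genes with over 97% copied windows and mt-Atp8 lie at 0 or 1 counts, whereas all remaining genes have at least 140 counts in every library.

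The 22 tRNA genes were 59 to 75 bases long, so that no 101-base read can lie within one. As examples, the tRNA genes that passed the filter on low counts are shown whole, mt-Tw for tryptophan (chrM:4950-5016, plus strand) and mt-Ti for isoleucine (chrM:3706-3774, plus strand).
mt-Tw: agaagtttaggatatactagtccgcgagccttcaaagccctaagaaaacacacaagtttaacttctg
mt-Ti: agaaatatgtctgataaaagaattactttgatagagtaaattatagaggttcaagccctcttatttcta

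Of the tRNA genes, 13 were at 0 in every library, 16 had at most 3 counts in any library and 5 reached 10 counts (mt-Ti, mt-Tm, mt-Tw, mt-Tt and mt-Tp). All tRNA genes together had 30 to 93 counts per library. Over the whole mitochondrial genome, 18 of 37 genes were at 0 in all libraries and 11 passed the filter on low counts. These were 7 protein genes, both rRNA genes, mt-Ti and mt-Tw.

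The mitochondrial genes took 617809 and 336676 counts in ctrl 1 and ctrl 2, which were 2.90% (95% Wilson interval 2.89 to 2.91) and 1.60% (1.59 to 1.60) of all counts. In Zfp276cko 1 and 2 they took 335744 and 379612 counts, or 1.33% (1.32 to 1.33) and 1.43% (1.42 to 1.43). Intervals cover counting error only. The share was thus highest in ctrl 1, 1.81 times that of ctrl 2, and ctrl 2 lay closer to the Zfp276cko libraries than to ctrl 1.

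The mean share of the ctrl libraries was 2.25% ± 0.92 (SD, n = 2), and that of the Zfp276cko libraries was 1.38% ± 0.069 (SD, n = 2). Both Zfp276cko libraries were below both ctrl libraries and the ratio of the means was 0.613 (log2 -0.71). The two-sided exact permutation test gave the smallest p that 2 libraries against 2 can give, which is above 0.05, so that this design cannot pass the threshold. Without ctrl 1 the log2 ratio was -0.21. With a denominator that excluded the mitochondrial genes it was -0.72.

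Protein genes made up 91.1% to 96.6% of the mitochondrial counts of each library, so that the total largely restates them. The rRNA share was, like the total, higher in ctrl 1 than in ctrl 2 (ratio 1.58). It differed from the total in the order of the genotypes. Protein genes took 2.80% and 1.53% of the ctrl libraries and 1.23% and 1.30% of the Zfp276cko libraries. In contrast, the rRNA genes took 0.0993% and 0.0630% of the ctrl libraries and 0.102% and 0.127% of the Zfp276cko libraries. Within the mitochondrial counts, the rRNA genes made up 3.42% and 3.94% in ctrl and 7.69% and 8.92% in Zfp276cko, and here the ctrl libraries were close to each other.

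**Figure D2:**
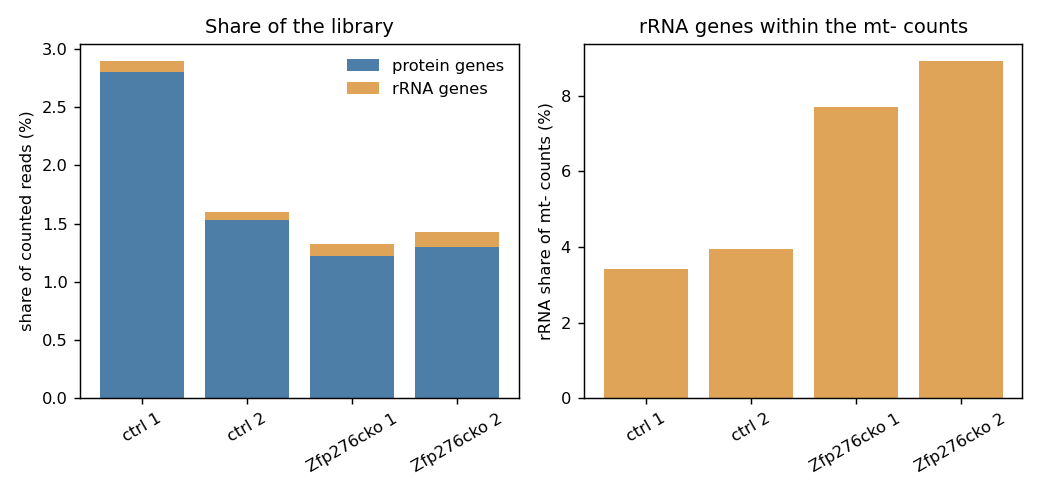
Left, percent of all counted reads of each library on mitochondrial protein genes (blue) and, stacked on top, mitochondrial rRNA genes (orange). Right, percent of the mitochondrial counts on the rRNA genes. The total is highest in ctrl 1 (2.90%), and the rRNA part of the mitochondrial counts is 3.42% to 3.94% in ctrl and 7.69% to 8.92% in Zfp276cko.

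Levels of different genes were compared as RPKM, that is as CPM per kb of gene. mt-Co1 had the highest level in every library, with 8998 and 3899 RPKM in ctrl and 3876 and 4096 RPKM in Zfp276cko. mt-Cytb followed with a mean of 2392 RPKM and mt-Nd1 with 2364 RPKM, and these neighbors in the order did not differ beyond their spread, mt-Cytb being above mt-Nd1 in 1 of 4 libraries. mt-Nd2 (mean 1227 RPKM), mt-Nd5 (927 RPKM), mt-Nd4 (807 RPKM) and mt-Rnr1 (475 RPKM) came next, each overlapping the range of the gene after it. Within every library, however, mt-Nd1 was above mt-Nd2, mt-Nd2 above mt-Nd5 and mt-Nd5 above mt-Nd4. This order of means over all libraries did not hold within a genotype for mt-Rnr1, which was below mt-Rnr2 in both ctrl libraries (340 and 246 RPKM against 422 and 250 RPKM) and above mt-Nd4 in both Zfp276cko libraries (612 and 704 RPKM against 549 and 499 RPKM). mt-Rnr2 (332 RPKM) was above mt-Nd6 (29.2 RPKM) in all libraries and their ranges did not overlap.

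Because a copied window cannot receive a unique read, levels were also computed per 1000 read positions without an exact nuclear copy. On this scale, chosen after the copies had been found, mt-Nd4 moved from the 6th to the 4th place, with 3498 and 2483 CPM per 1000 positions in ctrl and 1507 and 1371 in Zfp276cko, and stood above mt-Nd2 and mt-Nd5 in every library. mt-Co1 remained first, with a mean of 8044. The correction is the same in each library, so that it does not change any difference between libraries.

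The comparison of Zfp276cko with ctrl asks which RNAs change in level when differentiating OGCs lose Zfp276. A gene was called where the adjusted p did not exceed 0.05, the log2 fold change was 0.6 or more in size and the normalized counts averaged 20 or more. By edgeR's quasi-likelihood test 0 of the 11 mitochondrial genes tested were called. The share called over all 15766 genes tested was 0%, the smallest adjusted p of any gene being 0.0725, and limma voom called no mitochondrial gene either. At an unadjusted p of at most 0.05, 4 mitochondrial genes passed, of which 3 were lower in Zfp276cko (mt-Cytb, mt-Nd4, mt-Nd5) and 1 was higher (mt-Rnr1). With the same thresholds on fold and level, 3.02% of all genes tested passed in the lower and 5.11% in the higher direction. DESeq2, the test that the study used with these thresholds, called the same 4 genes. Of all genes it called 2.07% in the lower and 2.68% in the higher direction.

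Both Zfp276cko libraries were below both ctrl libraries for 4 mitochondrial genes (mt-Nd2, mt-Nd4, mt-Nd5, mt-Cytb), against 23.7% of all genes tested, and above them for 2 genes (mt-Rnr1, mt-Ti), against 26.8% of all genes tested. For the other 5 genes the genotypes overlapped. The median log2 fold change was -0.89 over the 7 protein genes and -0.0013 over all genes tested. All 9 protein and rRNA genes had more normalized counts in ctrl 1 than in ctrl 2, with a median log2 difference of 0.85 between these replicates, whereas the median absolute difference between the Zfp276cko replicates was 0.14. Over all genes tested, the corresponding medians were 0.32 in ctrl and 0.095 in Zfp276cko. The median of the protein genes was -0.27 without ctrl 1 and -1.34 without ctrl 2.

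mt-Cytb, the sole mitochondrially encoded subunit of complex III (chrM:14145-15288), had the smallest spread. It had 103295 and 81393 normalized counts in ctrl, as against 38766 and 39604 in Zfp276cko, so that the genotypes were far apart. Its log2 fold change was -1.24 (SE 0.18, adjusted p = 0.123). It was -1.05 without ctrl 1 and -1.41 without ctrl 2, and DESeq2 gave an adjusted p = 2.97e-09.

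Among the complex I genes, mt-Nd4 (chrM:10167-11544) had 44431 and 29546 normalized counts in ctrl and 17299 and 15729 in Zfp276cko. Both Zfp276cko libraries were well below ctrl 2, the lower of the ctrl libraries. The log2 fold change was -1.16 (SE 0.24, adjusted p = 0.177) and -0.84 without ctrl 1. In DESeq2 the adjusted p was 1.75e-04. These counts come from the part of mt-Nd4 without a nuclear copy.

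mt-Nd5 (chrM:11742-13565) had 64148 and 41267 normalized counts in ctrl and 28224 and 28716 in Zfp276cko. The genotypes were again separate, and the Zfp276cko libraries were almost equal. Its log2 fold change was -0.89 (SE 0.25, adjusted p = 0.240), with an adjusted p = 0.0126 in DESeq2. It was -0.53 without ctrl 1 and then no longer reached the fold threshold.

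mt-Nd2 (chrM:3914-4951) had 55548 and 25226 normalized counts in ctrl and 18685 and 23216 in Zfp276cko. Here ctrl 2 was only slightly above Zfp276cko 2. The log2 fold change of -0.95 (SE 0.42, adjusted p = 0.384) became -0.27 without ctrl 1. mt-Nd1 (chrM:2751-3707), the first protein gene after the rRNA genes, had 88773 and 43489 normalized counts in ctrl and 40263 and 44449 in Zfp276cko. Its genotypes overlapped and ctrl 1 alone was high. The log2 fold change was -0.64 (SE 0.38, adjusted p = 0.484) with all libraries and -0.037 without ctrl 1.

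The complex IV gene mt-Co1 (chrM:5328-6872) resembled mt-Nd1 in this respect. It had 351773 normalized counts in ctrl 1 but 142815 in ctrl 2, next to 136894 and 144605 in Zfp276cko. ctrl 2 lay between the Zfp276cko libraries. The log2 fold change was -0.81 (SE 0.47, adjusted p = 0.480) with all libraries and -0.020 without ctrl 1, so that the difference between the genotype means rested on ctrl 1.

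**Figure D3:**
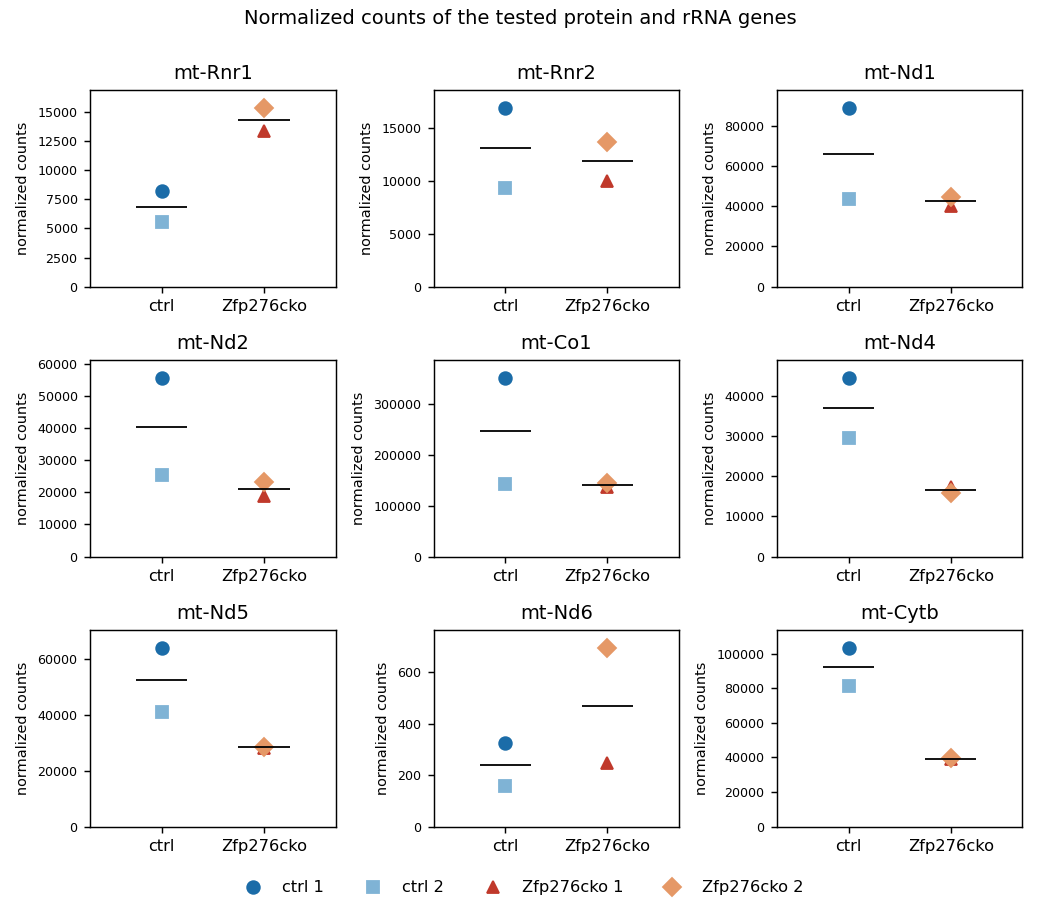
Normalized counts (linear axes from 0) of the 9 mitochondrial protein and rRNA genes tested, with 1 point per library and horizontal lines at the genotype means. The genotypes are separate for mt-Nd2, mt-Nd4, mt-Nd5, mt-Cytb (lower in Zfp276cko) and mt-Rnr1 (higher in Zfp276cko), and for mt-Nd1 and mt-Co1 ctrl 1 alone stands above the rest.

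The rRNA genes behaved differently from the protein genes and from each other. Stretches around their longest runs of A are shown because the libraries were made from RNA selected by its poly(A) sequence. Such runs were not particular to the rRNA genes. The longest runs of the tested protein genes had from 3 A (mt-Nd6) to 8 A (mt-Nd2), with 5 A in mt-Cytb and 7 A in mt-Co1. The part of these runs in the counts was not tested. Capitals mark a run of 5 A in mt-Rnr1 (chrM:677-736, plus strand) and of 7 A in mt-Rnr2 (chrM:1461-1520, plus strand).
mt-Rnr1: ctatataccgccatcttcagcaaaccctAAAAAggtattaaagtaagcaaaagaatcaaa
mt-Rnr2: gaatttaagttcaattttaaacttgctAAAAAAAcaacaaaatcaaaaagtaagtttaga

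mt-Rnr1 (chrM:70-1024), the 12S rRNA gene, had 8209 and 5560 normalized counts in ctrl and 13359 and 15366 in Zfp276cko. Both Zfp276cko libraries were above both ctrl libraries, and ctrl 1 was not the highest library, unlike for most protein genes. The log2 fold change was 1.06 (SE 0.23, adjusted p = 0.183), and the DESeq2 adjusted p was 0.0013. The value was 1.37 without ctrl 1 and 0.79 without ctrl 2. mt-Rnr2 (chrM:1094-2675), the 16S rRNA gene, lies downstream of mt-Rnr1 with the tRNA gene mt-Tv between them. For mt-Rnr2 there were 16905 and 9374 normalized counts in ctrl and 10016 and 13715 in Zfp276cko. The genotypes overlapped fully, and the log2 fold change was -0.15 (SE 0.34, adjusted p = 0.873) with all libraries and 0.34 without ctrl 1.

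Ratios within a library do not depend on the total count. mt-Rnr1 had 0.486 and 0.593 counts per count of mt-Rnr2 in ctrl and 1.33 and 1.12 in Zfp276cko, so that the order of the rRNA genes by count was reversed between the genotypes. Relative to the summed protein genes, mt-Rnr1 was at 1.16% and 1.53% in ctrl and 4.76% and 5.17% in Zfp276cko. mt-Cytb had 12.6 and 14.6 counts per count of mt-Rnr1 in ctrl and 2.90 and 2.58 in Zfp276cko. Both ctrl libraries were on the same side of both Zfp276cko libraries in these ratios to mt-Rnr1. Ratios among the protein genes differed more between the ctrl libraries. mt-Cytb had 0.294 and 0.570 counts per count of mt-Co1 in ctrl, next to 0.283 and 0.274 in Zfp276cko, and 1.16 and 1.87 counts per count of mt-Nd1 in ctrl, next to 0.963 and 0.891 in Zfp276cko. In these ratios ctrl 1 was closer to the Zfp276cko libraries than ctrl 2 was. With the summed mitochondrial counts as library size, the log2 fold change of mt-Rnr1 was 1.82 (SE 0.54, edgeR adjusted p = 0.0380). That of mt-Cytb was -0.51 and that of mt-Nd4 was -0.40, while mt-Nd1 (0.19), mt-Co1 (0.062) and mt-Rnr2 (0.65) turned positive. Nuclear genes were scaled by the mitochondrial counts as well in this fit, so that its adjusted p was not read as a call.

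RNAs that lack a long poly(A) tail were looked at beside the rRNA genes as a measure of what passed the poly(A) selection. Nuclear-retained RNAs were looked at as a separate list, which is not such a measure. Nuclear RNAs without such a tail summed to 1.60 and 3.70 CPM in ctrl and 3.17 and 3.72 CPM in Zfp276cko, with 6 of 10 at 0 in all libraries. Replication-dependent histone genes summed to 160 and 202 CPM in ctrl and 167 to 169 CPM in Zfp276cko. The median log2 fold change of the 19 histone genes tested was -0.46, and -0.020 without ctrl 2. Both Zfp276cko libraries were below both ctrl libraries for 8 of them (42.1%, against 23.7% of all genes tested) and above for 1. DESeq2 called 1 of the 19 lower (2.07% of all genes tested) and 0 higher. Nuclear-retained RNAs (Malat1, Neat1, Meg3) summed to 2540 and 991 CPM in ctrl and 1654 and 1779 CPM in Zfp276cko. Only 1 of the 10 nuclear RNAs without such a tail passed the filter on low counts, so that their sum rests on few reads. The part of the poly(A) selection in the rRNA values was not tested.

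mt-Nd6 (chrM:13552-14070), a complex I gene and the only protein gene on the minus strand, overlaps the end of mt-Nd5 by 14 bases on the opposite strand. Its counts were low, with 273 and 140 in ctrl and 272 and 809 in Zfp276cko, which is between 0.382% and 2.42% of those of mt-Nd5. After normalization ctrl had 324 and 158 counts and Zfp276cko 246 and 695, and only Zfp276cko 2 stood out. The log2 fold change of 0.97 (SE 0.64, adjusted p = 0.527) was 0.034 without Zfp276cko 2. How reads were assigned to strands is not given in the sources used here, so that part of these counts could stem from RNA of the opposite strand.

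The tRNA counts were too low for a comparison. For mt-Tw, ctrl 1 and ctrl 2 held 44 and 12 counts, Zfp276cko 1 and 2 held 18 and 6, and its log2 fold change was -1.61 (SE 0.91, adjusted p = 0.470). For mt-Ti, the ctrl libraries held 8 and 0 counts and the Zfp276cko libraries 12 and 23, and its mean normalized count was below the threshold of 20 for a call. Of the tRNA genes that were not tested, mt-Tt had 15 and 7 reads in the ctrl libraries and 7 and 4 in Zfp276cko, mt-Tp had 18 and 0 in ctrl and 2 and 7 in Zfp276cko, and mt-Tm had 4 and 10 in ctrl and 9 and 8 in Zfp276cko. Of the 8 tRNA genes on the minus strand, mt-Tp alone reached 10 counts.

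Along the mitochondrial chromosome, the log2 fold changes of the 8 plus-strand rRNA and protein genes tested declined from mt-Rnr1 at one end to mt-Cytb at the other. Their correlation with the start position was r = -0.74 (Spearman's rho = -0.88), and r ranged from -0.64 to -0.87 when single libraries were left out. Among the 6 protein genes alone r was -0.78. The difference between replicates of the same genotype also varied with position, with r = -0.51 (rho = -0.24) for ctrl 1 over ctrl 2 and r = -0.73 (rho = -0.79) for Zfp276cko 2 over Zfp276cko 1. These values describe genes that share a precursor RNA, a chromosome and the same libraries and are not independent, so that no test was made.

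**Figure D4:**
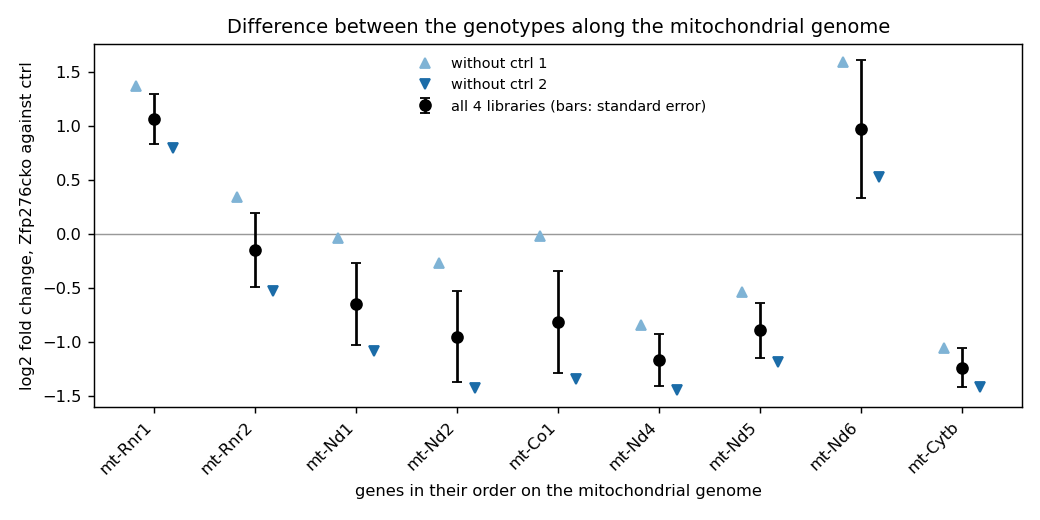
Log2 fold change of Zfp276cko against ctrl for the 9 protein and rRNA genes tested, in chromosomal order. Black points with standard errors use all libraries and triangles leave out ctrl 1 or ctrl 2. The values run from 1.06 for mt-Rnr1 to -1.24 for mt-Cytb, the minus-strand gene mt-Nd6 (0.97) lies apart, and without ctrl 1 the values of mt-Nd1 and mt-Co1 are near 0.

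The nuclear partners of the mitochondrial proteins were examined as lists. Of 77 nuclear OXPHOS subunit genes, 76 were tested. Their median log2 fold change was -0.22 with a range of -0.47 to 0.17, and for 57 of them each Zfp276cko library lay under each ctrl library (75.0%, against 23.7% of all genes tested), whereas the reverse held for 1. No gene was called by edgeR, DESeq2 or limma voom, and 21 had an unadjusted edgeR p of at most 0.05 (15.6% of all genes tested). Different from the mitochondrial genes, this median changed little when a library was left out (-0.26 to -0.17). The median difference between ctrl 1 and ctrl 2 was 0.0066 on the log2 scale, whereas it was 1.03 for the mitochondrial protein genes.

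Medians of the nuclear subunits were -0.20 for complex I (36 genes), -0.12 for complex II (4 genes), which has no mitochondrially encoded subunit, -0.27 for complex III (9 genes), -0.29 for complex IV (11 genes) and -0.23 for complex V (16 genes). The NADH dehydrogenase core subunit Ndufs1 had 3569 and 3275 normalized counts in ctrl and 2906 and 2795 in Zfp276cko (log2 fold change -0.26, SE 0.096, adjusted p = 0.318). Atp5b, the catalytic beta subunit of the ATP synthase, had 24788 and 26578 in ctrl and 21428 and 20899 in Zfp276cko (-0.28, SE 0.12, adjusted p = 0.365). Cyc1, the cytochrome c1 partner of mt-Cytb in complex III, had 2731 and 2562 in ctrl and 2335 and 2055 in Zfp276cko. Both genotypes were separate for these 3 genes. Sdha of complex II, with 5982 and 5802 in ctrl and 6028 and 5541 in Zfp276cko, overlapped between genotypes, as did Uqcrc1 of complex III and Cox5a of complex IV.

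Nuclear genes for transcription, processing and stability of mitochondrial RNA had a median log2 fold change of 0.025 over 46 genes tested, of which 7 (15.2%) were lower and 14 (30.4%) higher in each Zfp276cko library than in each ctrl library, against 23.7% and 26.8% of all genes tested. The mitochondrial RNA polymerase gene Polrmt had 617 and 710 normalized counts in ctrl and 693 and 652 in Zfp276cko. Tfam, a transcription and packaging factor of mitochondrial DNA, had 909 and 879 in ctrl and 951 and 973 in Zfp276cko (log2 fold change 0.11, SE 0.097, adjusted p = 0.652). Lrpprc, which stabilizes mitochondrial mRNAs together with Slirp, had 2138 and 1808 in ctrl and 1656 and 1620 in Zfp276cko (-0.27, SE 0.12, adjusted p = 0.374). For Slirp, ctrl 1 and ctrl 2 had 824 and 863 normalized counts and the Zfp276cko libraries 1009 and 918. Lrpprc was thus lower and Slirp higher in both Zfp276cko libraries, by amounts that did not pass the test.

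In this list, the unadjusted p did not exceed 0.05 for 3 of 46 genes, a smaller share than the 15.6% of all genes tested. Pnpt1, the mitochondrial polynucleotide phosphorylase, had 1228 and 881 normalized counts in ctrl and 1783 and 1961 in Zfp276cko. Its log2 fold change was 0.83 (SE 0.19, adjusted p = 0.189), and DESeq2 called it (adjusted p = 0.0201), as 1 of 46 genes, a share near the 2.68% of all genes that DESeq2 called higher. Fastkd5, which takes part in processing of mitochondrial precursor RNA, had 179 and 150 in ctrl and 94.1 and 97.9 in Zfp276cko (-0.78, SE 0.22, adjusted p = 0.241). Polg, the mitochondrial DNA polymerase, had 2449 and 2652 in ctrl and 1971 and 1992 in Zfp276cko (-0.36, SE 0.090, adjusted p = 0.205).

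Mitochondrial ribosomal protein genes (77 tested) had a median of -0.084. Among them Mrps7, a protein of the small subunit that contains the 12S rRNA, had 2123 and 1767 normalized counts in ctrl and 1064 and 1127 in Zfp276cko. Its log2 fold change was -0.83 (SE 0.13, adjusted p = 0.132), and DESeq2 called it, as 1 of 77 genes, a share that does not exceed the 2.07% of all genes called lower. Mitochondrial aminoacyl-tRNA synthetase genes (19 tested) and regulators of mitochondrial biogenesis (6 tested) had medians of -0.077 and -0.015, and Ppargc1a, a coactivator that promotes mitochondrial biogenesis, had 150 and 178 in ctrl and 179 and 186 in Zfp276cko.

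**Figure D5:**
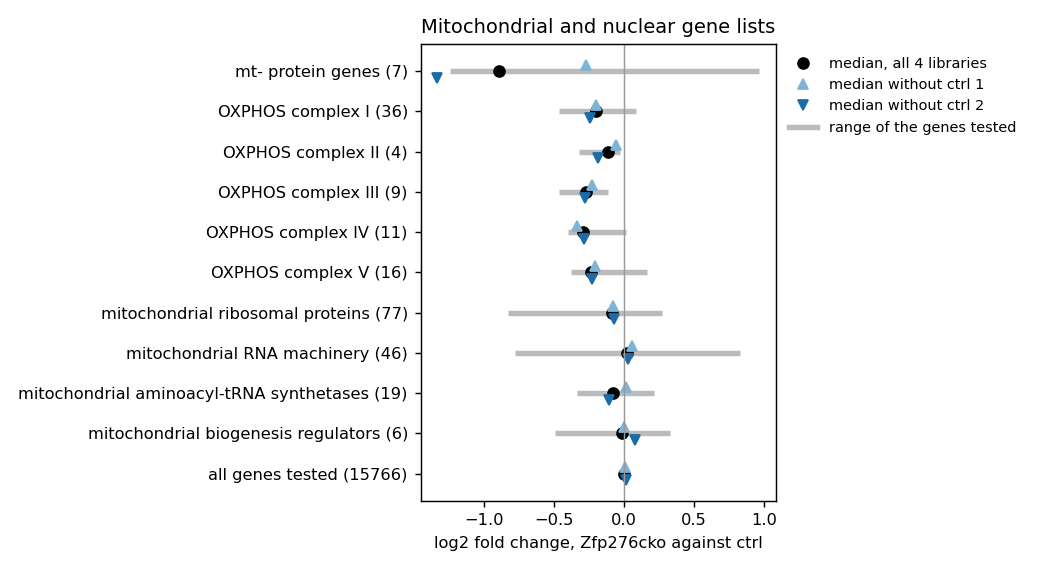
Median log2 fold change of Zfp276cko against ctrl for the mitochondrial protein genes and lists of nuclear genes with a mitochondrial role, with the number of genes tested in parentheses. Grey bars give the range of the genes and triangles the median without ctrl 1 or ctrl 2. The median of the mitochondrial protein genes moves from -0.27 to -1.34 between these settings, whereas those of the nuclear OXPHOS complexes stay between -0.34 and -0.056.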

How the data were processed

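The authors deposited 1 table of raw read counts per library. Per the labels, libraries were made with a stranded mRNA kit and sequenced as single-end reads of 101 bases. According to the study's methods, reads were mapped to mm10 with STAR 2.5.4a and unique mappings counted on Ensembl genes with HTSeq, whereas the submitters' processing notes name featureCounts 1.5.1. Of 53353 gene symbols, 93.2% occurred in GENCODE M21, from which positions and sequences were taken. Counts were fitted in R 4.3.3 with edgeR 4.0.16 (filterByExpr, TMM, quasi-likelihood test, Benjamini-Hochberg adjustment over all 15766 genes tested, which held 99.9% of the counts). DESeq2 1.42.0 (the study used an earlier version of this test) and limma 3.58.1 were alternatives. The main edgeR fit, DESeq2 and limma voom were run on simulated data, and the other settings were not. The simulation gave all genes the same small spread, so that it does not show how the tests behave at the spread of these libraries. Counts divided by a library's TMM effective size and multiplied by the mean of these sizes are called normalized. Apart from the cell type markers and the nuclear-retained RNAs, named nuclear genes came from a list of regulators of mitochondrial RNA and core OXPHOS subunits. Genes of the mitochondrial lists called by DESeq2 (Pnpt1, Mrps7) and nuclear copies with 10 or more counts were added. Of the list of regulators and subunits, the genes described in full were picked after their values were seen. The mitochondrial genes and the lists were chosen with earlier results of these data known. Replicates are separate preparations. Same-numbered libraries did not deviate together (correlation -0.0050), so that numbers were not used as pairs.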

Additional observations from a re-analysis of the deposited data

How the results depend on the processing

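With 2 libraries per genotype, what passes a test depends on how the spread is estimated. Over all genes tested, edgeR called 0 genes, 8 without a filter on low counts, 1282 at an unadjusted p and 750 in DESeq2. Leaving out 1 library gave 0 to 3078 calls, and those above 0 arose without a ctrl library, when the spread came from the Zfp276cko pair alone and the lone ctrl library was assumed to vary like it. Of the mitochondrial genes, 0 were called by edgeR, 4 in DESeq2, 4 at an unadjusted p and 0 to 8 when 1 library was left out. With the mitochondrial counts as library size mt-Rnr1 passed all thresholds in edgeR (log2 fold change 1.82, adjusted p = 0.0380), against an adjusted p = 0.183 with TMM. That setting also scaled every nuclear gene by the mitochondrial counts, and the adjustment ran over all genes so scaled. The share of all genes passing under it is not given, so that this value was not read as a call. The median log2 fold change of the mitochondrial protein genes was -0.89, ranged from -1.34 to -0.27 when 1 library was left out and was -0.029 with the mitochondrial protein counts as library size. Over all 11 mitochondrial genes tested the median was -0.81. Over the same 11 genes it was -0.037 without ctrl 1 and -1.19 without ctrl 2. Medians over the mitochondrial genes of each fit with 1 library left out, which were not the same 11, ranged from -1.34 to -0.15. mt-Rnr2 ranged from -0.52 to 0.34 when 1 library was left out and changed sign without ctrl 1 (0.34), without Zfp276cko 1 (0.067) and with the mitochondrial counts as library size (0.65), as did mt-Nd1 (0.19) and mt-Co1 (0.062) under the last setting. The cause of these changes was not tested. The log2 ratio of the share of counts stayed negative in all 8 alternatives (-1.07 to -0.21). Medians of the nuclear OXPHOS, mitochondrial RNA and ribosomal protein lists kept their sign in every alternative. The synthetase and biogenesis lists were recomputed only with 1 library left out, and there the synthetases became positive without ctrl 1 (0.013) and the biogenesis regulators without ctrl 1 (0.00054), ctrl 2 (0.077) or Zfp276cko 1 (0.016).

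The replicate number as a block gave 0 calls over all genes and a median of -0.85 for the mitochondrial protein genes, and it changed no call.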
